A study of Mus musculus domesticus and Mus musculus molossinus with 8 samples.

Results

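The comparison described here sets liver of MSM/Ms mice injected with MegaFasL against liver of untreated MSM/Ms mice. These are 2 of the 8 RNA sequencing libraries of a study that profiled liver and thymus of MSM/Ms and C57BL/6 (B6) mice with and without MegaFasL. MSM/Ms is an inbred strain derived from Japanese wild mice (Mus musculus molossinus), and MegaFasL is a recombinant multimer of the ligand of the death receptor Fas. The mice were 8 weeks old, and the injected group received 1.5 µg of MegaFasL. Each group holds 1 library, so the difference has no replicate check, no test was possible, and every value below describes these libraries. The number of mice behind each library, the interval between injection and removal of the liver, the hour of day and the sex of the mice are not given in the sources used here.

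The level of a gene was its FPKM, fragments per kilobase of transcript scaled by the mapped fragments of the library. The difference of a gene is the log2 of its FPKM plus 1 in the injected liver minus the same in the untreated liver, after the injected values were divided by a centring factor of 1.025, the median of the injected to untreated ratios of genes averaging 1 FPKM or more. Of the 23284 genes listed, 6891 averaged 5 FPKM or more over both livers and were compared. A gene is called higher or lower where the difference reached 1 in size, that is 2-fold on this scale, which understates the change of low genes.

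Fas is a receptor of the tumour necrosis factor receptor superfamily that carries a death domain. When its ligand clusters it, Fas recruits the adaptor FADD and caspase-8, and in hepatocytes the signal passes mainly through the cleavage of Bid, which releases cytochrome c from mitochondria and activates the executioner caspases. Hepatocytes carry much Fas, and strong stimulation of the receptor in mice causes massive apoptosis of the liver.

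In the injected MSM liver 419 genes (6.08% of those compared) were called higher and 350 (5.08%) were called lower. The median difference over all compared genes was 0.02. At 4-fold, 108 genes (1.57%) were higher and 59 (0.856%) were lower. The split depended on the scaling: when both libraries were brought to a common sum, the calls became 330 higher and 435 lower, because that scaling moved the median of all genes by -0.12. Just inside the threshold stood Paf1, at 9.24 FPKM untreated and 20 injected, and Slc25a45, at 17.0 and 8.19. Just outside it stood Ypel3, at 12.3 and 26.3 FPKM, and the ribosomal protein gene Rps29, at 345 and 176.

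**Figure D1:**
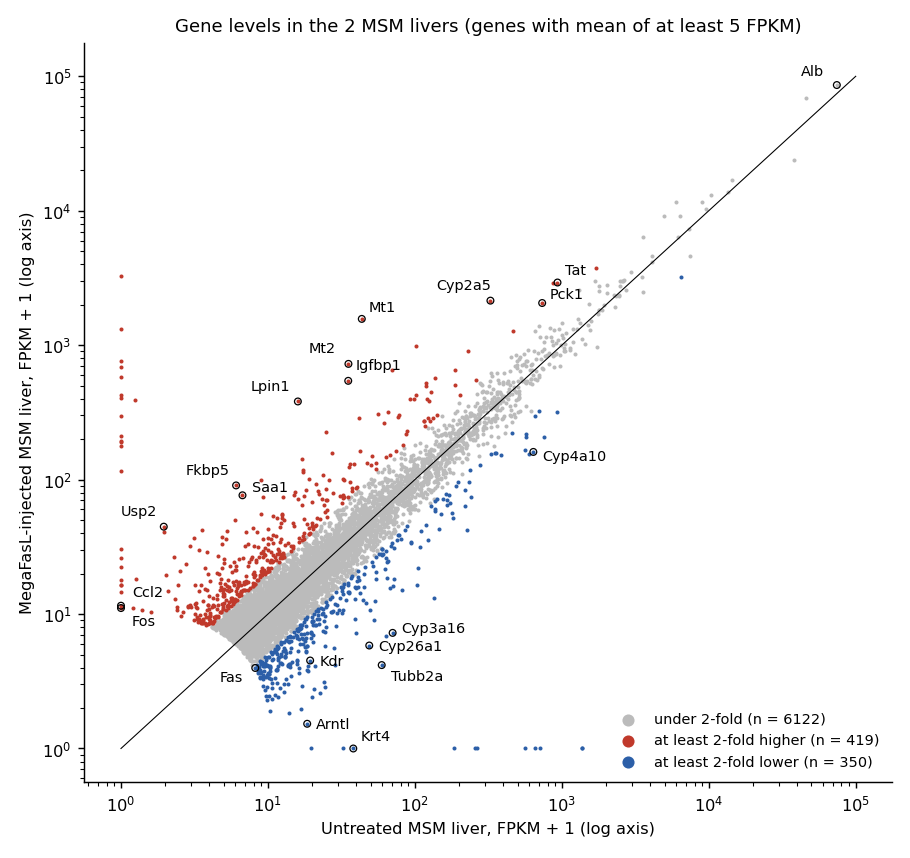
Level of each of the 6891 compared genes in the untreated (horizontal) and the injected (vertical) MSM liver, as FPKM plus 1 on log axes, 1 library each. The line marks equal values. The 419 genes called higher (red) lie above the main cloud of 6122 genes (grey) and the 350 called lower (blue) lie below it, and the genes on the left and bottom edges are listed at 0 in 1 library.

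Some facts of the libraries touch all results. The depth, read back from the steps between low FPKM values, came to 1.73 fragments per FPKM and kilobase in the untreated liver and 1.57 in the injected liver. A gene of 5 FPKM and 2 kb would thus rest on 15.5 and 14.1 fragments. The 95% Poisson interval of 16 fragments runs from 9.1 to 26 and that of 14 from 7.7 to 23.5, which covers counting error only. Albumin transcripts made up 10.8% and 11.2% of the summed FPKM, and the ribosomal RNA precursor Rn45s 6.64% and 9.02%. All 20 hepatocyte markers were compared, and their summed level was 147000 FPKM untreated and 183000 injected. The 20 T cell markers summed to 10.9 and 8.93 FPKM, against 2030 and 3050 in MSM thymus. Treatment coincides with the animals, with the library and with the table in which the values were normalized, so these cannot be told apart.

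The receptor itself was lower in the injected liver. Fas (chr19:34290666-34327772 of mm10, plus strand) stood at 7.20 FPKM untreated and 2.97 injected, a difference of -1.07. Its level was lower in the injected B6 liver as well, at 31.2 and 12.6 FPKM, a difference of -1.29. Fasl, the gene of the endogenous ligand, was listed at 0 in both MSM livers. Casp8, the initiator caspase of the pathway, stood at 6.31 and 2.67 FPKM, a difference of -1.02, but its mean was under 5 FPKM, so it was not among the compared genes. The adaptor Fadd stood at 2.16 and 2.14 FPKM and Bid at 3.08 and 2.64, values of a few fragments per kilobase each.

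Of the 27 genes listed for Fas signalling, 17 were compared, 1 was called higher and 3 were called lower, and their median difference was -0.03. Besides Fas, the lower calls were Birc3, an inhibitor of apoptosis protein, at 8.19 and 2.44 FPKM, and the mitochondrial nuclease gene Endog, at 16.7 and 7.67 FPKM. Fas and Birc3 stood under 5 FPKM in the injected liver. Of the 15 members with at least 5 FPKM there, 1 was called lower, against 2.94% of all genes with that level, and with 5 FPKM added in place of 1 none of the 3 was called. The higher call was Casp6, an executioner caspase, at 5.53 FPKM untreated and 13.7 injected, a difference of 1.14. In B6 liver the difference of Casp6 was -0.83. Cflar, which encodes the caspase-8 inhibitor c-FLIP, stood at 17.0 and 29.3 FPKM, a difference of 0.72 that is under the threshold.

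Within the BCL-2 family, which sets the permeability of the outer mitochondrial membrane, the anti-apoptotic Bcl2l1 (BCL-XL) had the largest difference. Bcl2l1 stood at 13.8 FPKM untreated and 46.9 injected, a difference of 1.66, against 0.16 in B6 liver. Mcl1, the other main survival member in hepatocytes, stood at 31.7 and 58.3 FPKM, a difference of 0.83. The pore former Bax was lower, at 19.1 and 10.5 FPKM, a difference of -0.84. Bnip3, a mitophagy receptor of the family, stood at 86.3 and 216 FPKM, a difference of 1.28. In all, 2 of 8 compared members were called higher and 0 lower, with a median of 0.55. In B6 liver 0 of 9 were called higher and 1 lower, with a median of -0.16.

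Among receptors of the tumour necrosis factor family, Tnfrsf1b (TNF receptor type II) stood at 7.23 and 24.0 FPKM, a difference of 1.57. It was the only one of 3 compared members past the threshold. Of the 8 compared genes of the p53 target list, 3 were called higher and 0 lower, with a median of 0.61. They were Btg2, an antiproliferative gene, at 2.41 and 13.9 FPKM, Trp53inp1, a stress protein gene, at 24.9 and 97.7 FPKM, and Ddit4, an inhibitor of mTORC1, at 5.06 and 21.9 FPKM. Ddit4 also stands in the lists of glucocorticoid-responsive and stress genes. Sesn1, Mdm2, Ccng1 and Perp had differences of 0.86, 0.36, -0.11 and -0.64, and Trp53 itself, also listed, one of -0.58. Of the 6 members with at least 5 FPKM untreated 2 were called higher, against 3.64% of all genes with that level.

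Immediate-early genes, which encode transcription factors and feedback regulators switched on within minutes of a stimulus, stood higher in the injected liver. Egr1 stood at 6.04 FPKM untreated and 40.1 injected, a difference of 2.51. Junb, a subunit of AP-1, stood at 6.70 and 24.9 FPKM, a difference of 1.71. Fos (chr12:85473890-85477273, plus strand), its partner in AP-1, was listed at 0 untreated and stood at 10.1 FPKM injected. Maff, a small Maf factor, stood at 1.45 and 15.5 FPKM, and Gadd45b, a stress sensor, at 2.17 and 15.5 FPKM. Of 17 compared members 11 were called higher and 0 lower, with a median of 1.55. Members such as Fos entered the comparison only through the injected library, so they had to differ. Of the 10 members with at least 5 FPKM in the untreated liver, 5 were called higher, against 3.64% of all genes with that level.

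NF-kappaB is the transcription factor that drives cytokine and adhesion genes in inflammation. Of 14 compared subunits and targets, 4 were called higher and 1, Birc3, was called lower, with a median of 0.54. Cxcl1, a neutrophil-attracting chemokine, stood at 3.87 FPKM untreated and 36.6 injected, a difference of 2.92. In B6 liver, where its mean was under 5 FPKM, the difference was -0.13. Ccl2, a monocyte-attracting chemokine, was listed at 0 and stood at 10.5 FPKM injected. Icam1, the adhesion molecule that arrests leukocytes, stood at 4.70 and 19.6 FPKM. Cebpb, a transcription factor of the acute-phase response, stood at 7.10 and 31.3 FPKM, and of these 4 it alone had at least 5 FPKM untreated.

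The summed level of the 19 neutrophil and monocyte markers was 9.66 FPKM untreated and 32.6 injected in MSM liver, and 30.8 and 35.4 in B6 liver. Most of it came from S100a8, at 3.05 and 16.8 FPKM, and S100a9, at 4.05 and 11.1, which encode the subunits of calprotectin. In the untreated MSM liver 14 of the 19 markers were listed at 0, and in the injected liver 11 were, among them the granule genes Mpo, Elane and Ltf. The part of these cells in the chemokine and NF-kappaB values was not tested. In whole liver, fewer or more cells of a type and less or more RNA per cell cannot be told apart.

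Acute-phase proteins are secreted by hepatocytes in response to interleukin-6 and interleukin-1. Saa1 (chr7:46740497-46742980, minus strand), which encodes serum amyloid A, stood at 5.71 FPKM untreated and 75.4 injected, a difference of 3.47. In B6 liver Saa1 had a difference of -0.90. Saa2, its near-identical neighbour with which reads may be shared, stood at 11.3 and 46.8 FPKM. Serpina3n, a protease inhibitor, stood at 127 and 449 FPKM, Saa4 at 37.2 and 130, and Orm2, an orosomucoid, at 5.05 and 16.7. These 5 were the higher calls among 25 compared members, and 0 were called lower. The list's median was 0.16, and the fibrinogen chains Fga, Fgb and Fgg had differences of -0.01, 0.01 and -0.10. Since the 5 higher members were picked by the threshold, the median of the 25 had to lie under them.

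The list for interleukin-6 and STAT3 holds receptors and signalling proteins besides targets. Of its 11 compared members 5 were called higher, with a median of 0.57. Igfbp1 (chr11:7197782-7202546, plus strand), an insulin-like growth factor binding protein made by the liver, stood at 34.2 FPKM untreated and 542 injected, a difference of 3.91. In B6 liver the difference of Igfbp1 was -0.59. Pim3, a survival kinase, stood at 14.1 and 75.7 FPKM. The interleukin-6 receptor gene Il6ra stood at 9.75 and 52.2 FPKM, and Il1r1, the interleukin-1 receptor, at 3.69 and 16. Igfbp1 also belongs to the glucocorticoid-responsive and fasting lists, so these lists are not separate evidence.

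Metallothioneins bind zinc and copper and are induced by metals, glucocorticoids and interleukin-6. Mt1 (chr8:94179082-94180327, plus strand) stood at 42.5 FPKM untreated and 1567 injected, a difference of 5.14. Its neighbour Mt2 (chr8:94172664-94173568, plus strand) stood at 34.3 and 725 FPKM, a difference of 4.33. In B6 liver the differences were 2.17 and 2.63. Slc39a14, the zinc importer ZIP14, stood at 32.2 and 98.9 FPKM. Slc30a10, a manganese exporter, was lower, at 17.4 and 2.82 FPKM, a difference of -2.30. Of 6 compared genes of metal binding and transport, 3 were called higher and 1 lower.

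**Figure D2:**
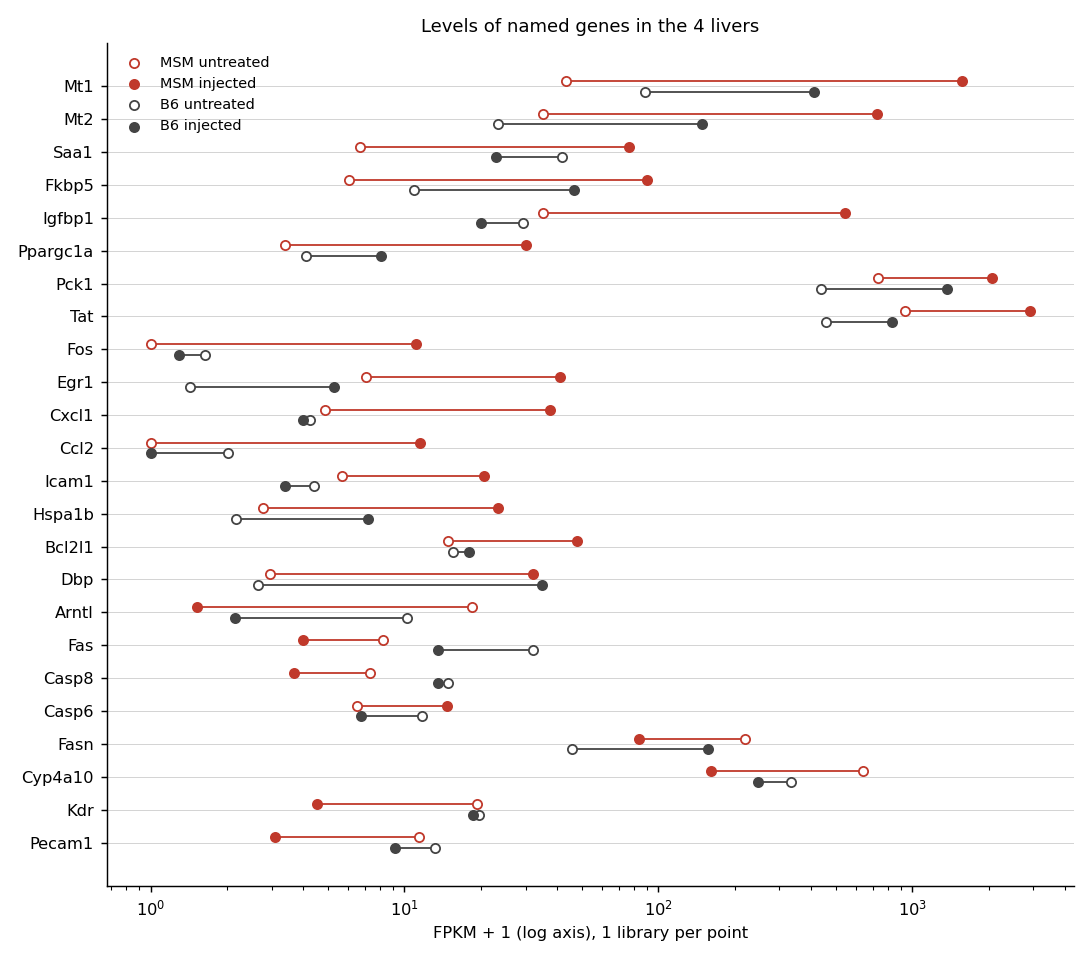
FPKM plus 1 (log axis) of 24 genes in the untreated (open) and injected (filled) livers of MSM (red) and B6 (grey) mice, 1 library per point. Mt1, Saa1, Igfbp1 and Cxcl1 span wide intervals in MSM liver, while Igfbp1 and Saa1 lie lower after injection in B6 liver, and Dbp and Arntl show intervals of the same direction in both strains.

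Heat shock chaperones refold damaged proteins, and the list held members of the cytosol, the endoplasmic reticulum and mitochondria. Hspa1b, an inducible HSP70, stood at 1.77 FPKM untreated and 22.4 injected, a difference of 3.05. Hspb8 stood at 45.9 and 132 FPKM, its partner Bag3 at 6.04 and 18.1, the HSP40 gene Dnajb1 at 12 and 31.8, and the HSP110 gene Hsph1 at 20.6 and 50.9. These 5 were the higher calls among 27 compared members, 0 were lower, and the median was 0.23. Hspa1b entered the comparison only through the injected library, so it had to differ. Of the 25 members with at least 5 FPKM untreated 4 were called higher, against 3.64% of all genes with that level. In B6 liver the differences of Hsph1, Dnajb1 and Bag3 were 1.56, 1.67 and 1.40. In MSM thymus Hspa1b, at only 1.22 and 5.04 FPKM, and Hsph1 had differences of 1.38 and 1.67. Those of Dnajb1, Hspb8 and Bag3 there were 0.20, 0.02 and -1.39. The untreated MSM thymus held more hepatocyte marker transcripts, at a sum of 3990 FPKM against 295 injected. The part of liver transcripts in the thymus differences was not tested.

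The integrated stress and unfolded protein response split into members above and below. Herpud1, a component of endoplasmic reticulum degradation, stood at 119 and 524 FPKM, a difference of 2.10. Ddit3 (CHOP), a pro-apoptotic transcription factor, stood at 2.59 and 11.4 FPKM, a difference of 1.76. In B6 liver, where its mean was under 5 FPKM, the difference was -1.28. Trib3, a pseudokinase target of CHOP, stood at 2.5 and 7.91 FPKM. The chaperone gene Hspa5 (BiP) was lower, at 500 and 319 FPKM, and the secreted factor Manf stood at 45.5 and 23.8, differences of -0.68 and -0.94 that are under the threshold. Of 20 compared members 4 were called higher and 0 lower, and the median was -0.34. Of the 17 members with at least 5 FPKM untreated 2 were called higher, against 3.64% of all genes with that level. Of 19 compared NRF2 and oxidative stress genes, 0 were called higher and 1 lower, Osgin1, an oxidative stress growth inhibitor, at 70.3 and 15.2 FPKM.

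Glucocorticoid-responsive genes, targets of the receptor that corticosterone activates, had the highest share of higher calls among lists with more than 2 compared members. Of 19 compared members 17 were called higher and 0 lower, with a median of 1.93. Of the 17 members with at least 5 FPKM in the untreated liver, 15 were called higher, against 3.64% of all genes with that level. Fkbp5 (chr17:28399094-28517527, minus strand), a co-chaperone of the receptor, stood at 5.07 FPKM untreated and 89.5 injected, a difference of 3.86. Lpin1 (chr12:16535669-16610966, minus strand), a phosphatidate phosphatase and transcriptional coactivator, stood at 15 and 380 FPKM, a difference of 4.54. The zinc finger gene Zbtb16 stood at 6.35 and 32.0 FPKM and Klf9 at 11.5 and 54.2. The receptor gene Nr3c1 stood at 33.0 and 29.3 FPKM, a difference of -0.20.

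In B6 liver 9 of 18 compared members of that list were called higher and 1 lower, with a median of 1.09. Lpin1, Zbtb16 and Per1 had differences of 4.2, 2.39 and 3.44 there. In MSM thymus Fkbp5 had a difference of 1.41 and Mt1 one of 0.24. Hepatocyte markers summed to 3990 FPKM in the untreated MSM thymus and 295 in the injected one, and their part in these differences was not tested. Several members of the list are also clock-controlled or fasting-responsive in liver.

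Circadian clock genes differed strongly between the livers. The clock is a feedback loop in which ARNTL and CLOCK activate the Per and Cry genes and the D-box factors, and the liver's clock genes swing over the day. Arntl stood at 17.5 FPKM untreated and 0.527 injected, a difference of -3.61, and Clock stood at 21.2 and 7.43. Their target Dbp stood at 1.96 and 31.0 FPKM, and Per1 at 1.04 and 18.7. Usp2, a clock-controlled deubiquitinase, stood at 0.955 and 43.7 FPKM, and Gm129 (the repressor Ciart) at 0.969 and 40.0. Of 19 compared members 11 were called higher and 4 lower. Dbp, Per1, Usp2 and Gm129 entered the comparison only through the injected library and Arntl only through the untreated one, so they had to differ. Of the 13 members with at least 5 FPKM untreated 5 were called higher, against 3.64% of all genes with that level. Among these 5, Tef stood at 11.7 and 72.8 FPKM and Nr1d1 at 5.72 and 25.2. Of the 18 members with at least 5 FPKM injected 2 were called lower, against 2.94% of all genes with that level.

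In B6 liver 13 of 19 clock genes were called higher and 3 lower, with Arntl at -2.27 and Dbp at 3.68. The hour at which each liver was taken is not given, and its part in the clock, glucocorticoid and metabolic values was not tested. With 1 library per group, hour of day, feeding, handling and MegaFasL cannot be told apart.

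**Figure D3:**
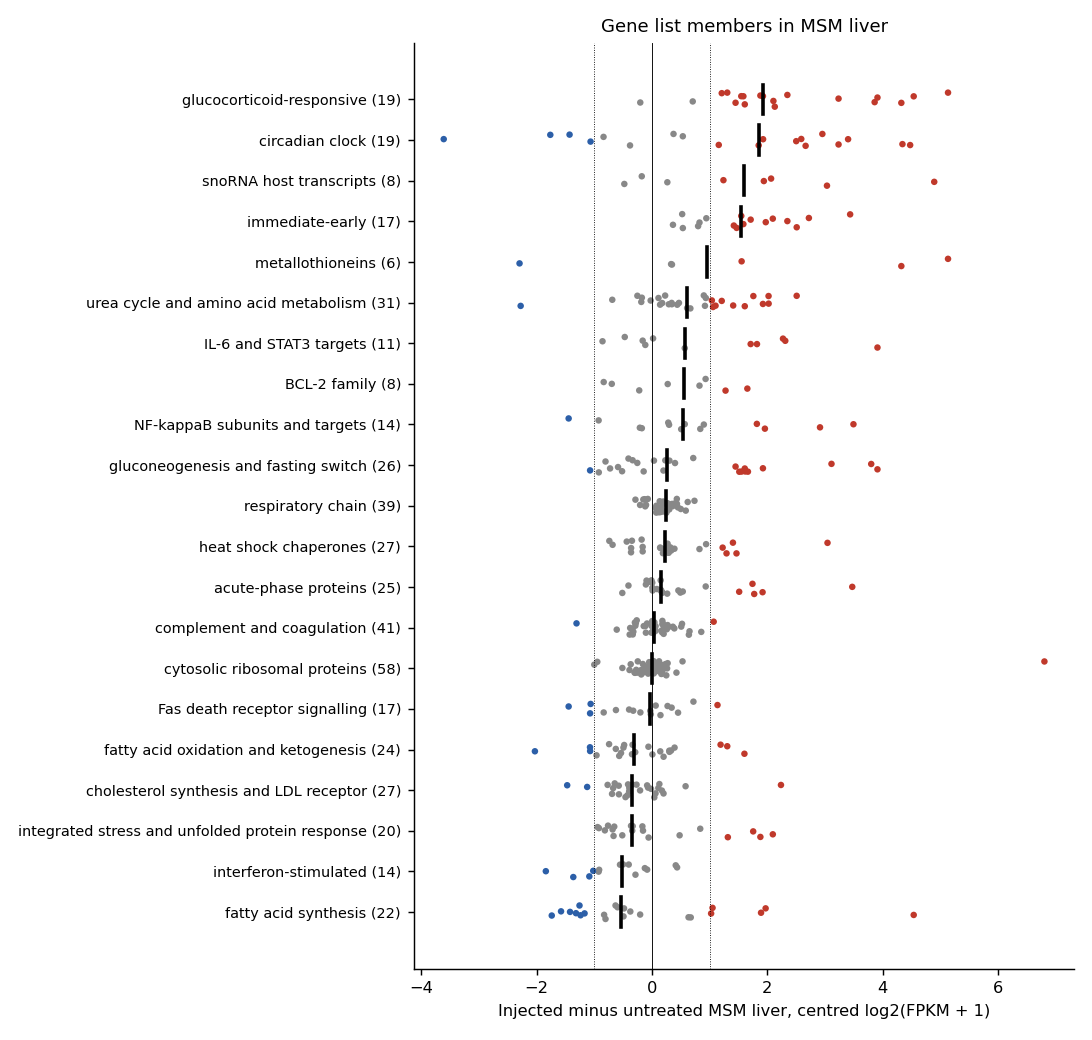
Differences (injected minus untreated MSM liver, centred log2 of FPKM plus 1) of the compared members of 21 gene lists, 1 point per gene, with the median of each list as a bar, sorted by median. Dotted lines mark 2-fold. The glucocorticoid-responsive list has 17 of its 19 points to the right of the threshold, while the 39 respiratory chain genes stay within it.

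Genes of gluconeogenesis and the fasting switch included 10 higher calls and 1 lower among 26 compared, with a median of 0.27. Pck1, the gate of gluconeogenesis from oxaloacetate, stood at 734 FPKM untreated and 2058 injected, a difference of 1.45. The coactivator Ppargc1a stood at 2.40 and 29.1 FPKM, a difference of 3.11, against 0.94 in B6 liver. Ppp1r3g, a glycogen-targeting phosphatase subunit, stood at 0.274 and 17.2 FPKM. The insulin receptor substrate gene Irs1 was lower, at 12.3 and 5.46 FPKM. G6pc, the last enzyme of glucose release, stood at 265 and 205 FPKM, a difference of -0.41.

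Of 31 compared genes of the urea cycle and amino acid metabolism, 11 were called higher and 1 lower, with a median of 0.61. Tat, which degrades tyrosine, stood at 933 and 2924 FPKM, a difference of 1.61. Ass1, the one urea cycle enzyme called, stood at 117 and 492 FPKM, and Slc7a2, an arginine transporter, at 101 and 423. Slc38a2, a transporter of neutral amino acids, stood at 26.2 and 158 FPKM, a difference of 2.51. Sds, serine dehydratase, stood at 76.9 and 302 FPKM, and Glul, glutamine synthetase, at 187 and 651. The lower member was Ddc, aromatic amino acid decarboxylase, at 103 and 21.1 FPKM, with a difference of -2.21 in B6 liver.

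Fatty acid synthesis genes split in both directions, with 5 of 22 called higher, 7 lower and a median of -0.54. Some enzymes of lipogenesis and some regulators were among the lower calls. Fasn, fatty acid synthase, stood at 218 FPKM untreated and 83.0 injected, a difference of -1.42. Its regulator Srebf1 (SREBP-1) stood at 62.0 and 20.6 FPKM, and the elongase Elovl6 at 34.6 and 13.6. Insig2, which retains SREBP in the endoplasmic reticulum, stood at 240 and 73.1 FPKM. Acaca, acetyl-CoA carboxylase, had a difference of -0.63 that is under the threshold. The higher group held Lpin1, Lpin2 and Thrsp (Spot 14), the last at 97.5 and 395 FPKM.

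Fasn and Elovl6 had differences of 1.73 and 1.17 in B6 liver, the opposite sign. Among the list's 5 largest MSM differences, Lpin1, Thrsp, Lpin2 and Insig2 had the same sign in B6 liver, at 4.2, 2.36, 1.6 and -2.27. Srebf1 had 0.25 there, the opposite sign. The B6 list had 8 of 22 members higher, 2 lower and a median of 0.49. Whether the strains differ was not tested, since each value rests on 1 library pair.

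Of 27 cholesterol synthesis genes 1 was called higher (3.7%) and 2 lower (7.41%) in MSM liver, shares near those of all compared genes, with a median of -0.34. The lower members were Mvk, mevalonate kinase, at 23.0 and 7.86 FPKM, and Idi1, an isomerase of the same pathway, at 331 and 155. In B6 liver 14 of 27 were higher and 0 lower, with a median of 1.04. Mvk and Idi1 had differences of 1.25 and 1.50 there, the opposite sign.

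**Figure D4:**
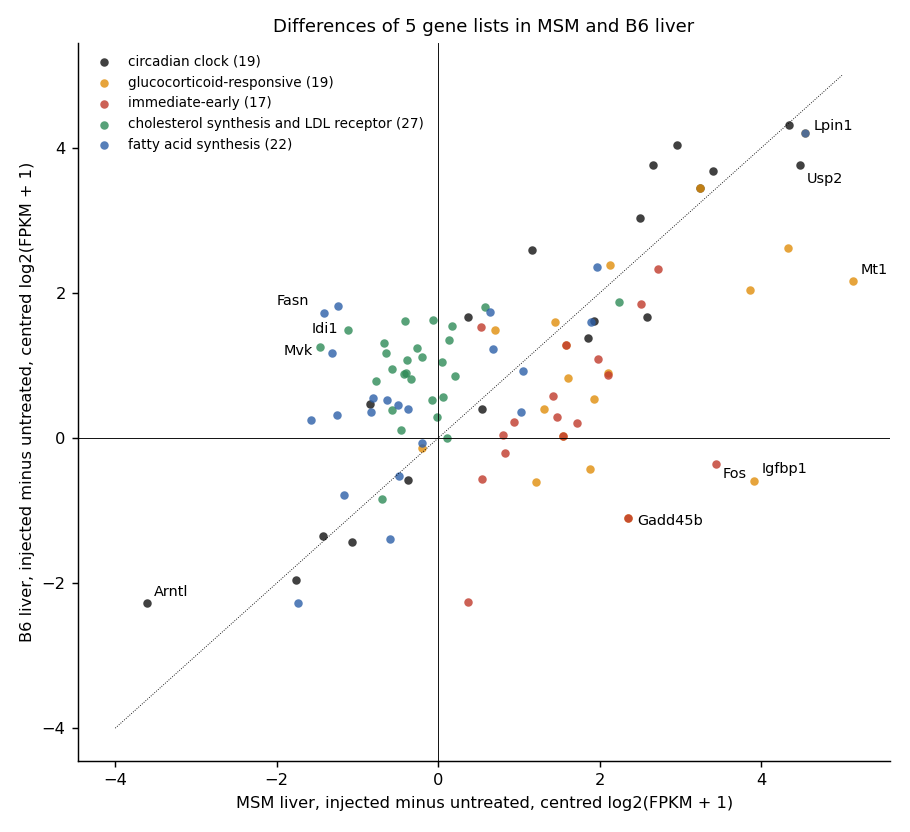
Differences in MSM liver (horizontal) against B6 liver (vertical) for the members of 5 lists that were compared in MSM liver. Values are centred log2 of FPKM plus 1, with each liver pair from its own libraries. The dotted line marks equal differences. Most of the 19 clock genes have the same sign in both strains. Most of the 27 cholesterol synthesis genes lie above 0 in B6 liver and around or below 0 in MSM liver. Igfbp1, Fos and Gadd45b lie to the right and below 0. In B6 liver Fos stood at 0.643 FPKM untreated and 0.294 injected and Gadd45b at 1.14 and 0, too low to be compared there.

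Fatty acid oxidation genes showed 3 higher and 3 lower calls among 24, with a median of -0.31. Cyp4a10, an omega-hydroxylase and classic target of PPAR alpha, stood at 639 FPKM untreated and 160 injected, a difference of -2.03. The receptor gene Ppara stood higher, at 31.4 and 100 FPKM, a difference of 1.6. Cpt1a, which admits fatty acids to mitochondria, stood at 62.3 and 147 FPKM. Plin2, a lipid droplet coat protein, was lower, at 161 and 77.8.

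In bile acid synthesis and transport, 4 of 24 members were called higher and 2 lower. Cyp7a1, the rate-limiting enzyme of bile acid synthesis, stood at 21.4 and 77.4 FPKM, a difference of 1.77, against 0.27 in B6 liver. Cyp8b1, which directs synthesis to cholic acid, was lower, at 169 and 76.0 FPKM. The sterol exporters Abcg5 and Abcg8 had differences of 1.58 and 1.73. Of 21 compared apolipoprotein and lipase genes 3 were higher and 0 lower. Among the higher was Lpl, lipoprotein lipase, at 4.05 and 24.8 FPKM. In B6 liver, where its mean was under 5 FPKM, Lpl had a difference of -1.3.

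Drug-metabolising cytochromes P450, listed with their reductase Por and 2 nuclear receptors, had 4 higher calls, Por among them, and 6 lower calls among 35, with a median of -0.05. Cyp2a5 stood at 326 FPKM untreated and 2143 injected, a difference of 2.68. Por, which supplies electrons to all microsomal P450 enzymes, stood at 55.3 and 306 FPKM. Cyp3a16 (chr5:145436309-145469723, minus strand) was lower, at 69.6 and 6.24 FPKM, a difference of -3.31, while in B6 liver it stood at 28.7 untreated and 192 injected. Cyp3a41a stood at 23.6 and 4.79 FPKM. The Cyp3a genes of this cluster are near-identical copies, so the authors' counting could split their reads and the single values are uncertain. Among 26 conjugation genes 1 was higher and 3 lower, led by the glycosyltransferase Ugt3a1 at 39.0 and 6.22 FPKM.

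Interferon-stimulated genes stood lower, with 0 of 14 compared members higher, 4 lower and a median of -0.53. The lower members were Irgm2, at 14.7 and 3.46 FPKM, Igtp, at 20 and 7.33, Ifi47, at 20.8 and 9.51, and Bst2, at 141 and 71.1. The first 3 encode GTPases that interferon-gamma induces. In B6 liver 0 of 27 were higher and 3 lower, with a median of -0.34.

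Endothelial markers stood lower in the injected MSM liver. The summed level of 19 endothelial markers was 214 FPKM untreated and 119 injected in MSM liver, and 313 and 280 in B6 liver. Of 14 compared, 0 were higher, 3 were lower and the median was -0.79. Kdr (chr5:75932827-75978458, minus strand), the VEGF receptor of endothelium, stood at 18.4 and 3.51 FPKM, a difference of -2.13. Pecam1 stood at 10.4 and 2.09 FPKM and Mrc1, a scavenger receptor of sinusoidal endothelium, at 17.4 and 6.21. Lyve1, another sinusoidal marker, stood at 8.41 and 12.7, the only one of the 14 above 0. Of the 10 markers with at least 5 FPKM in the injected liver 1 was called lower, against 2.94% of all genes with that level. When both libraries were brought to a common sum, 5 were called lower.

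Kupffer cell and macrophage markers summed to 203 FPKM untreated and 206 injected, with 1 of 10 compared members higher and a median of -0.23. The complement gene C1qb was the higher one, at 8.06 and 18.5 FPKM, while Vsig4 stood at 9.39 and 4.65. The sum of stellate cell and fibroblast markers was 199 and 226 FPKM. Of 8 compared, 5 had differences above 0, 1 was called higher and the median was 0.1. The called one was Col3a1, a fibrillar collagen, at 6.03 and 31.0 FPKM, while Dcn stood at 63.6 and 49.1. Natural killer cell markers summed to 0.654 and 5.83 FPKM and B cell markers to 3.71 and 0.639, with 0 compared members in either list.

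Erythroid markers summed to 176 FPKM untreated and 923 injected, against 370 and 306 in B6 liver. Hba-a1, an alpha globin, stood at 92.1 and 394 FPKM, and Alas2, the erythroid enzyme of haem synthesis, at 1.3 and 25.4. Hba-a2 stood at 0.236 and 390 FPKM, but it is a near-identical copy of Hba-a1 and the division of reads between them is uncertain. Gata1, the transcription factor that defines red cell precursors, was listed at 0 in both livers. Tfrc and Fech, also expressed by hepatocytes, stood at 20.5 and 15.4 FPKM and at 48.6 and 49.7.

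**Figure D5:**
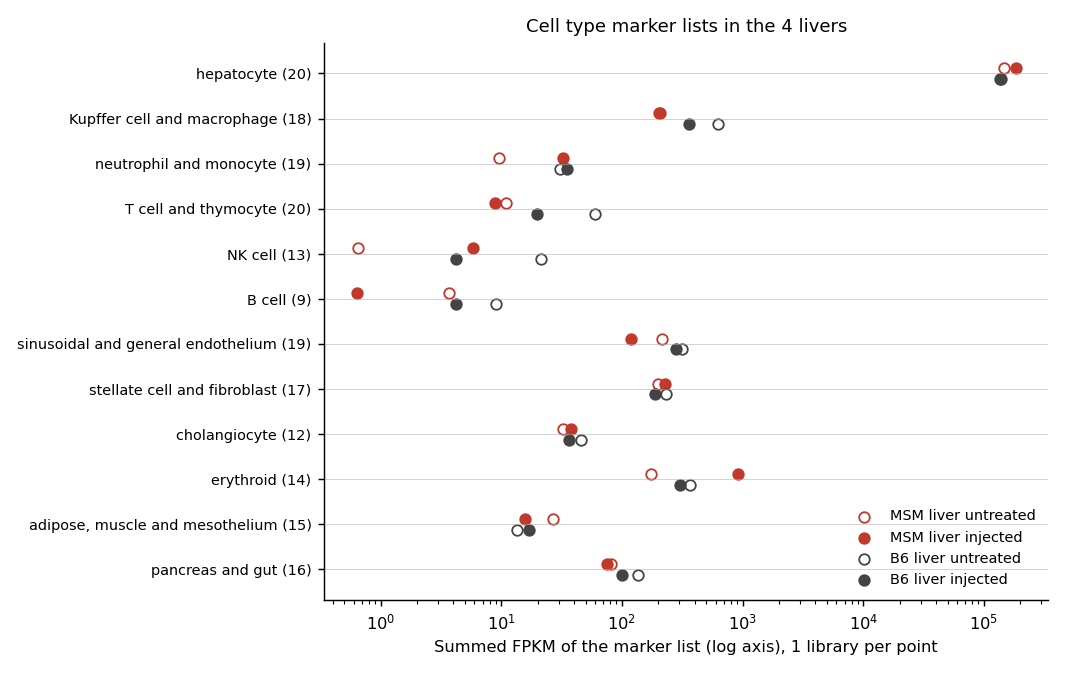
Summed FPKM (log axis) of 12 cell type marker lists, with the number of markers in brackets, in the untreated (open) and injected (filled) livers of MSM (red) and B6 (grey) mice, 1 library per point. In MSM liver the endothelial sum lies lower after injection, at 119 against 214 FPKM, and the erythroid sum higher, at 923 against 176, while the Kupffer cell sums, 203 and 206, overlap.

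Other large differences fell outside these groups. Krt4 and Krt13, keratins of stratified epithelium, stood at 37.1 and 31.2 FPKM in the untreated MSM liver and were listed at 0 in the injected liver and in both B6 livers. Tubb2a, a beta tubulin, stood at 58.5 and 3.17 FPKM, and Cyp26a1, which degrades retinoic acid, at 47.9 and 4.83. Sucnr1, the succinate receptor, stood at 23.6 and 1.86 FPKM, and Serpina7, thyroxine-binding globulin, at 62.2 and 5.90. Slc22a28, an organic anion transporter gene, stood at 18.6 FPKM and was listed at 0 in the injected liver.

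Of the compared genes 31 were listed at 0 in 1 of the MSM livers, 20 of them untreated and 11 injected. Among these 31, 19 carry symbols of small nucleolar, small Cajal body or micro RNAs, which a library of polyadenylated RNA captures poorly, and 2 are histone genes. Rpl34, a ribosomal protein gene with many pseudogene copies, stood at 0.00571 FPKM untreated and 114 injected, and this value is uncertain. The small nucleolar RNA host transcripts had 5 of 8 compared members higher and 0 lower, with Snhg3 at 4.93 and 48.8 FPKM and Taf1d at 3.67 and 19.0. None of the 4 members with at least 5 FPKM in the untreated liver was called higher, against 3.64% of all genes with that level.

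Several groups held few calls, where 6.08% of all compared genes were higher and 5.08% lower. Of 39 compared respiratory chain genes 0 were called in either direction, and their median was 0.24. Of 58 cytosolic ribosomal protein genes only Rpl34 was called, and the median was 0.01. Of 41 complement and coagulation genes 1 was higher and 1 lower, the latter Mbl1, a mannose-binding lectin, at 232 and 95.3 FPKM. Of 13 genes of the growth hormone and STAT5 axis 0 were called, but so short a list holds few calls at those shares. Only 6 cell cycle genes were compared, and 1 (16.7%), the replication clamp gene Pcna, was higher, at 10.4 and 24.0 FPKM.

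Set beside B6 liver, where 394 of 7025 compared genes (5.61%) were higher and 317 (4.51%) lower, the MSM calls overlapped in part. Over the 6282 genes compared in both strains, 112 were higher in both, which is 31.7% of the MSM and 32.7% of the B6 higher calls. Both strains shared 61 lower calls, 21.6% and 25.6% of their lists. In the opposite sense, 19 genes were higher in MSM and lower in B6 liver, and 14 were lower in MSM and higher in B6 liver. These are 5.38% of the MSM higher and 4.95% of the MSM lower calls. Of the 6282 genes, 238 were called lower and 342 higher in B6 liver. Over all 7025 genes compared in B6 liver the shares were 4.51% lower and 5.61% higher. The shares in the opposite sense were near these. Those of the MSM calls shared in direction, 31.7% and 21.6%, were above them. The difference between the strains was not tested.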

How the data were processed

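Gene levels were the FPKM values deposited by the authors, in 2 tables of 4 libraries each, 1 for untreated and 1 for injected mice. Per the submitters' processing notes, TopHat, Cuffdiff 2.2.1 and the mouse build mm10 were used, with annotation and settings not given in the sources used here. MSM reads were thus set against a B6-based reference, and the effect on levels was not tested. Per the labels' protocols, polyadenylated RNA was prepared with a TruSeq kit. The tables were joined by gene, with all 23284 genes in both, and centred over 10391 genes. With Python 3.11.15, pandas 2.3.3 and numpy 2.4.6, differences were computed as described above and the script was tested on simulated data. The authors' deposited bounds start at 0 for nearly all genes, and they did not overlap for 1 of the 6891 compared genes.

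Genes and 47 lists were chosen with earlier results of these data known. Named genes were the 15 largest differences each way (leaving out clone, pseudogene, Snor, Scarna and Mir symbols), all Fas signalling genes, the 5 largest differences in each other list and the 10 most abundant genes. Acaca, Ccng1, Clock, Elovl6, Fasn, Fech, the fibrinogens, G6pc, Glul, Hspa5, Irs1, Klf9, Lyve1, Mdm2, Nr3c1, Pck1, Trp53, Zbtb16 and the markers Elane, Gata1, Ltf and Mpo were named after their values were seen. Nr1d1 and Tef were also named after their values were seen. The filter of 5 FPKM in 1 liver was likewise chosen after the values were seen. Positions are from GENCODE M21. Promoter motifs were not analysed here. A few results are not reported here.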

Additional observations from a re-analysis of the deposited data

Results flagged for a closer look

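In these 13 genes, taken from the named genes only, the difference between injected and untreated liver had opposite signs in MSM and B6 mice and was at least 2-fold in both, which is what singled them out. Each strain has 1 pair of libraries, so the difference between the strains was not tested. The value given is the difference in MSM liver minus that in B6 liver, on the centred log2(FPKM + 1) scale. Higher in MSM and lower in B6 liver were Rpl34, with 7.86, the histone gene Hist1h4a, with 7.71, the demethylase-family gene Alkbh6, with 5.24, Ccl2, with 4.51, Lpl, with 3.62, Gadd45b, with 3.45, Ddit3, with 3.04, and C1qb, with 2.46. Rpl34, Hist1h4a, Alkbh6 and Ccl2 were at or near 0 in the untreated MSM liver. Ccl2, Gadd45b, Lpl and Ddit3 averaged under 5 FPKM in B6 liver and were not among the genes compared there. Lower in MSM and higher in B6 liver were Cyp3a16, with -5.97, Fasn, with -3.15, Mvk, with -2.72, Idi1, with -2.62, and Elovl6, with -2.49.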

How the results depend on the processing

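No paired analysis was possible because each group holds 1 library, and no library was left out for the same reason. The counts of genes called higher and lower, 419 and 350, became 254 and 191 with 5 FPKM added in place of 1, 888 and 957 with no filter, 737 and 771 with a filter of 1 FPKM, 169 and 126 with one of 20 FPKM, and 108 and 59 at 4-fold. With the filter set on the liver in which the called genes are lower, chosen after the data were seen, 247 were higher and 201 lower. That filter left 5 of 11 higher and 2 of 4 lower clock genes, 5 of 11 immediate-early genes, 1 of 4 NF-kappaB genes, 0 of 5 small nucleolar RNA hosts, 1 of 3 lower endothelial markers, 1 of 4 higher erythroid markers and 1 of 3 lower Fas signalling genes. With 5 FPKM added, 2 of 4 interferon-stimulated genes and 0 of 3 Fas signalling genes stayed lower, and with a common sum 5 endothelial markers were lower. Requiring the authors' deposited bounds not to overlap left 0 calls in either direction and 0 in each list, since nearly all lower bounds are 0. No called gene difference changed sign. Among the others only those of Dffa, Daxx, Aifm1, Apoc1, Apoe, Fga and Fgb did, at most 0.08 in size. Of 286 gene differences, 30 with 0.1 and 60 with 5 FPKM added differed by over 1.5-fold. Depth limits genes near 5 FPKM: 1 fragment on 2 kb is 0.322 FPKM untreated and 0.354 injected.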
